A study of Drosophila melanogaster with 12 samples.

Results

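Thor, bmm, InR, ImpL2, foxo, chico and sug are 7 genes of the insulin pathway, of its FOXO branch and of the control of fat and sugar use. They were taken by their FlyBase symbols, from a list drawn up with earlier results of these data known. All 7 were found among the 16524 gene rows of the table of pharate guts and among the 15651 gene rows of the table of adult guts.

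The study measured RNA in guts of Drosophila melanogaster males that carry mutant alleles of Hinfp, an X-linked zinc finger gene whose vertebrate counterpart acts on histone genes. Pharate males, which are formed adults still inside the pupal case, gave 8 libraries of midgut with Malpighian tubules, the fly's kidney-like organs. They were 2 libraries each of the control strains FRT19A-Control and W1118-Control, of the allele Hinfp3-PointMut and of the allele Hinfp2-DelMut. Adult intestine gave 1 library each of the FRT19A control (genotype Y/FRT19A), the deletion mutant (Y/Hinfp2), the same mutant with UAS-Hinfp-HA and the same mutant with UAS-His1-HA. Both rescue transgenes were driven by tub-Gal4, a driver active in nearly all tissues, so the rescues were not limited to the gut. His1 is the linker histone, which binds DNA between nucleosomes. Each sample pooled about 50 guts of flies kept at 25 °C, with controls aged 5 to 6 days and mutants and rescues 8 to 9 days, so age and genotype cannot be told apart. The labels do not say whether libraries of 1 group were grown apart, so p-values here cover the spread between libraries alone, and that spread may be technical.

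Insulin-like peptides bind the receptor InR, and the adaptor chico passes the signal on to PI3 kinase and Akt. Active Akt keeps the transcription factor foxo out of the nucleus, and when the signal is low foxo switches on genes of sparing and starvation, among them Thor, bmm and InR itself. ImpL2 is a secreted protein that binds insulin-like peptides and holds them from the receptor, and sug is a sugar-responsive transcription factor, the fly counterpart of Gli-similar proteins.

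The pharate libraries held 21924226 to 28740669 gene counts and the adult libraries 17991664 to 20271512. The 2 libraries of a pharate group carry the tags SE and PE in their titles, and these tags went with large differences. RNA of the signal recognition particle took 5.28% to 7.46% of counts in PE libraries and 8.63e-05% to 0.000195% in SE libraries. Hinfp itself stood at 9.83 to 17.1 CPM (CPM is a gene's share of all gene counts, scaled so that the shares of a library sum to 1000000 and adjusted between libraries by the TMM method) in the pharate controls and at 5.71 to 9.66 CPM in the mutants (log2 change -0.87, SE 0.272, edgeR Benjamini-Hochberg adjusted p = 0.0837; 0.0302 with the SE and PE tag as a block). The adult mutant library stood apart in testis genes: 16 of 16 testis markers had at least 10 counts there, against 4 in the adult control and 3 and 4 in the rescues. Their summed level was 560 CPM in that mutant library, 67.0 CPM in the control and 51.7 and 59.5 CPM in the rescues. In pharate guts 7 and 8 testis markers had at least 10 counts in the PE controls, 12 and 13 in the PE mutants, and 12 to 15 in the SE libraries of every group. Gut cells were present in every library, with enterocyte markers summing to 1570 CPM or more and all 8 enteroendocrine markers at 10 counts or more.

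Thor, InR and bmm rose in the pharate Hinfp mutants. Thor, the fly 4E-BP, which restrains the start of translation, went from 299.9 ± 102 to 1058 ± 110 CPM (SD, n = 4 libraries each). InR went from 90.42 ± 29.3 to 264.2 ± 33.5 CPM and bmm, the fly adipose triglyceride lipase, from 96.35 ± 20.6 to 179.2 ± 2.38 CPM. For these 3 genes every mutant library lay above every control library, which held for 9.35% of all 13244 genes tested. ImpL2 reached 2.34 times its control mean but did not pass the test, and foxo, chico and sug did not pass either. A gene was called at a Benjamini-Hochberg adjusted p under 0.05 over all genes tested, and this comparison called 4.59% of genes higher and 6.34% lower. With the SE and PE tag as a block ImpL2 passed (edgeR Benjamini-Hochberg adjusted p = 0.00380) and foxo, chico and sug did not. That fit called 12.3% of genes higher and 19.2% lower. In whole guts a change in the number of cells of a type and a change in RNA per cell cannot be told apart.

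**Figure D1:**
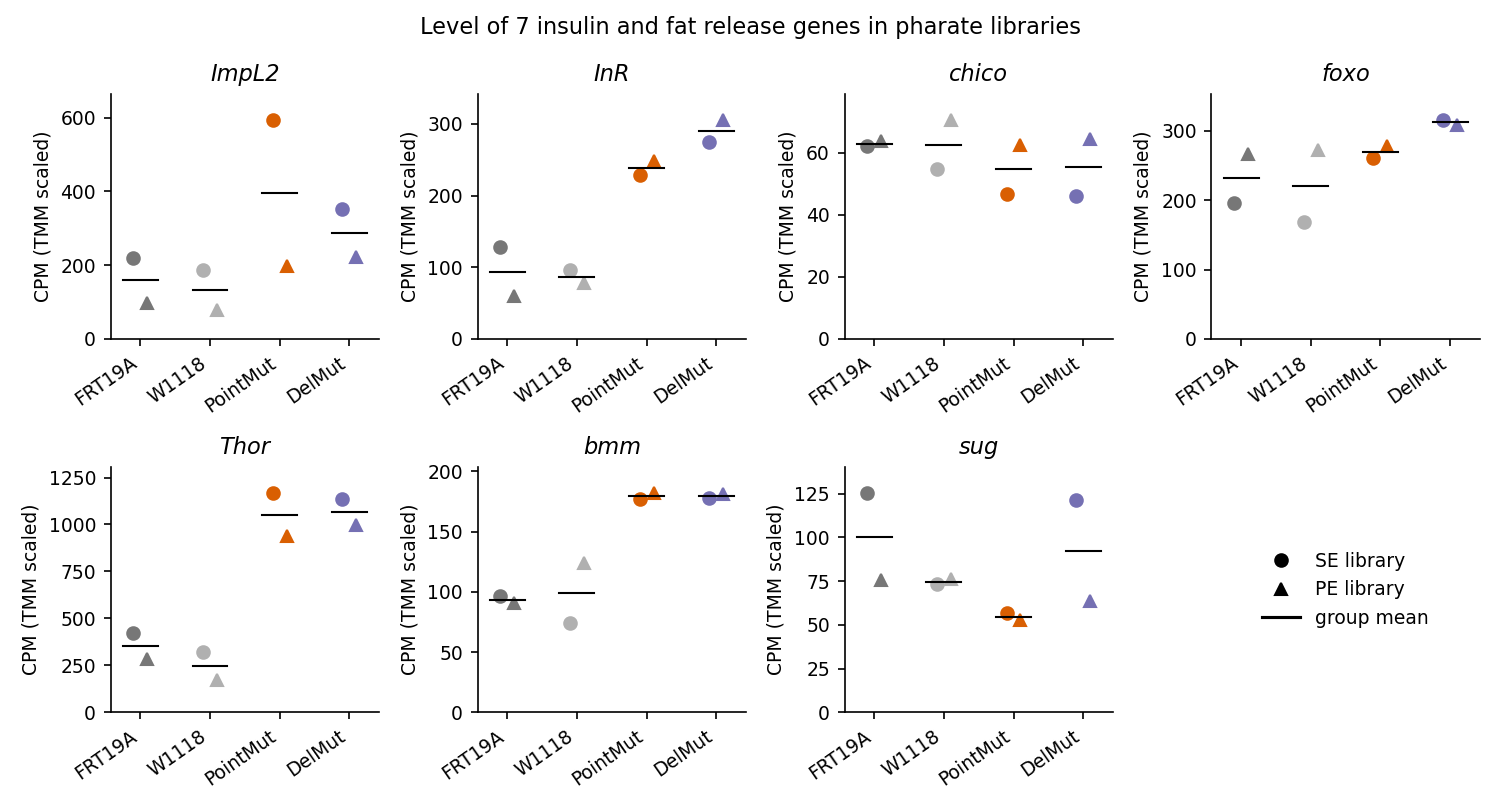
Level of each gene (CPM, TMM scaled, linear axis from 0) in the 8 pharate libraries by group, with circles for SE libraries, triangles for PE libraries and a line at the group mean. Thor, InR and bmm show all 4 mutant libraries above all 4 control libraries, while ImpL2, foxo, chico and sug overlap.

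ImpL2 (FBgn0001257, BDGP6 chromosome arm 3L, 4224006 to 4236147, minus strand) acts outside the cell, upstream of the receptor. With the SE library first, it had 219.1 and 98.59 CPM in the FRT19A strain, and 187.7 and 78.61 CPM in the W1118 strain. The point mutant had 594.1 and 197.3 CPM and the deletion mutant 351.1 and 222.4 CPM. Every SE library was higher than the PE library of its group. Within either tag both mutants lay above both controls, although the groups overlap when the tags are mixed. The share of all genes with that order within either tag was not counted. The log2 change was 1.23 (SE 0.462, edgeR Benjamini-Hochberg adjusted p = 0.139), and with the tag as a block it was 1.23 (SE 0.178, adjusted p = 0.00380), which passes. The blocked fit called 12.3% of all genes higher and 19.2% lower. PE libraries alone also passed (1.26, edgeR Benjamini-Hochberg adjusted p = 0.00867), where 21.5% of genes were called higher. DESeq2 gave 1.28 with a Benjamini-Hochberg adjusted p = 0.0486, and it called 9.11% of genes higher. The gene CG46460, on the same strand, shares 61.9% of the exon bases of ImpL2 in the annotation used here and had no row in the pharate table, so counts of ImpL2 can include reads of either gene.

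InR (FBgn0283499, chromosome arm 3R, 21570248 to 21619321, minus strand) encodes the only insulin receptor tyrosine kinase of the fly. Its level, SE library first, was 128.3 and 59.7 CPM in the FRT19A strain, and 96.05 and 77.64 CPM in the W1118 strain. It was 228.3 and 248.3 CPM in the point mutant and 274.3 and 305.7 CPM in the deletion mutant. The lowest mutant library stood well above the highest control library, and the highest control was the SE library of FRT19A. InR rose by 1.55 on the log2 scale (SE 0.244; adjusted p = 0.0108 by edgeR, Benjamini-Hochberg). The call held in all 8 fits that left out 1 library, with log2 changes of 1.39 to 1.76. SE libraries alone gave 1.14 (SE 0.210) and PE libraries alone 2.02 (SE 0.195).

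chico (FBgn0024248, chromosome arm 2L, 10242512 to 10247078, minus strand) encodes the insulin receptor substrate. Its level was 54.6 to 70.6 CPM in controls and 46.14 to 64.32 CPM in mutants, with the lowest 2 values in the SE libraries of the mutants and overlapping groups. The log2 change was -0.19 (SE 0.162, edgeR Benjamini-Hochberg adjusted p = 0.523). The antisense RNA gene asRNA:CR44995 overlaps 10.6% of its exon bases and had 0 to 2 counts.

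foxo (FBgn0038197, chromosome arm 3R, 14056945 to 14087978, plus strand) is the only FOXO transcription factor gene of the fly, and its activity is set mainly by where the protein lies in the cell. Its level was 195.8 and 267.0 CPM in FRT19A, 168.7 and 272.0 CPM in W1118, 261.2 and 278.8 CPM in the point mutant and 316.0 and 308.8 CPM in the deletion mutant, SE library first. Both control strains were lower in SE than in PE, and the groups overlap by the SE library of the point mutant. The log2 change was 0.37 (SE 0.185, edgeR Benjamini-Hochberg adjusted p = 0.266; 0.0704 with the tag as a block). In SE libraries alone the change was 0.64 (SE 0.178) and in PE libraries alone 0.14 (SE 0.104).

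Thor (FBgn0261560, chromosome arm 2L, 3478434 to 3479612, plus strand) is a direct foxo target and its protein is switched off by TOR kinase. It had 420.9 CPM (SE) and 281.9 CPM (PE) in FRT19A and 321.6 and 175.0 CPM in W1118. It had 1166 and 936.1 CPM in the point mutant and 1134 and 995.5 CPM in the deletion mutant. The lowest mutant library exceeded the highest control library by more than the whole range of the controls. Thor rose by 1.82 on the log2 scale (SE 0.270; adjusted p = 0.00883 by edgeR, Benjamini-Hochberg), the largest change of the 7 genes. It was called in all 8 fits that left out 1 library (log2 1.63 to 2.03).

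bmm (FBgn0036449, chromosome arm 3L, 14776496 to 14786412, minus strand) encodes the lipase that starts the breakdown of stored triglyceride at the lipid droplet. It stood at 96.36 and 90.62 CPM in FRT19A, 74.41 and 124.0 CPM in W1118, 176.8 and 181.7 CPM in the point mutant and 177.5 and 180.7 CPM in the deletion mutant, SE library first. The 4 mutant libraries lay very close together, while the controls spread far more widely below them. bmm rose by 0.90 on the log2 scale (SE 0.164; adjusted p = 0.0160 by edgeR, Benjamini-Hochberg). The call was lost without either library of the point mutant (edgeR Benjamini-Hochberg adjusted p = 0.0554 and 0.0521) or the PE library of the deletion mutant (0.0529), with log2 changes of 0.89 to 0.90 there. Fat body is the main fat store of the fly and lies beside the gut, and its 8 markers, led by Lsp1gamma or apolpp, summed to 127 to 669 CPM in controls and 341 to 740 CPM in mutants. No fat body marker was called (2 higher in the blocked fit) and 1 was at 0, in the SE library of the deletion mutant alone. Their median log2 change was 0.593. The 2 higher with the block were apolpp (mean 53.3 to 227 CPM, log2 2.09, edgeR Benjamini-Hochberg adjusted p = 0.00167) and Lsp2 (4.36 to 47.9 CPM, 3.04, 0.0103). In that fit Fbp1 (0.77) and Fbp2 (0.28) were also higher, without passing. Lsp1alpha (-2.01), Lsp1beta (-0.07), Lsp1gamma (-0.48) and Apoltp (-0.26) went the other way, also without passing. The part of fat body markers in the rise of bmm was not tested.

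sug (FBgn0033782, chromosome arm 2R, 12924567 to 12930644, plus strand) ranged from 73.56 to 125.2 CPM in controls and from 52.61 to 121.2 CPM in mutants. The SE libraries of FRT19A and of the deletion mutant were both far above the other 6. The groups overlap by that deletion mutant library alone, since the rest of the mutant libraries, at 52.61 to 63.68 CPM, lay below every control. The log2 change was -0.25 (SE 0.317, edgeR Benjamini-Hochberg adjusted p = 0.660). CG13319, on the same strand, shares 6.2% of its exon bases.

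The SE and PE libraries gave the same direction for the genes that rose. Comparing each mutant library with each control library of its own tag gave 8 log2 ratios per gene. All 8 were positive for Thor (1.43 to 2.51), InR (0.83 to 2.36), bmm (0.54 to 1.25), ImpL2 (0.68 to 1.66) and foxo (0.04 to 0.91), and 1 of 8 was positive for chico and for sug. The share of all genes with 8 positive ratios was not counted, so these signs have no background to be read against. SE libraries alone called 0 genes by edgeR (3091 of 13145 at an unadjusted p under 0.05), so Thor (1.61, edgeR Benjamini-Hochberg adjusted p = 0.0900), bmm (1.03, 0.112) and InR (1.14, 0.117) missed the threshold there. PE libraries alone called Thor (2.10, edgeR Benjamini-Hochberg adjusted p = 0.00961), InR (2.02, 0.00795), bmm (0.77, 0.0391) and ImpL2. The difference between the tags was itself tested, and no member passed: it was 0.85 for InR (SE 0.310, edgeR Benjamini-Hochberg adjusted p = 0.230), -0.54 for foxo (SE 0.212, 0.271) and 0.45 for Thor (SE 0.360, 0.689). That test called 6.07% of all genes, and 0 genes without either library of the point mutant (1714 at an unadjusted p under 0.05 each), 18 without the SE and 104 without the PE library of the deletion mutant and 437 without the SE library of W1118.

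**Figure D2:**
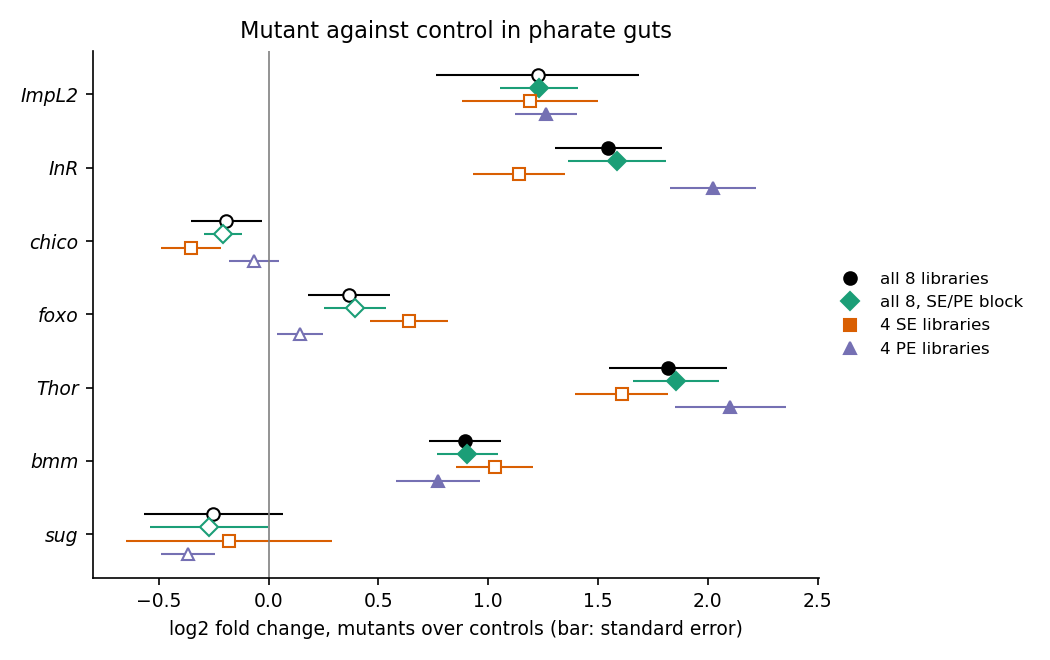
Log2 fold change of the 4 mutant over the 4 control pharate libraries for each gene, with the standard error as a bar, from all 8 libraries, from all 8 with the SE and PE tag as a block, and from SE or PE libraries alone. Filled points had an adjusted p under 0.05; InR and Thor lie further right in PE than in SE libraries and foxo further left, differences that did not pass the test.

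No difference between the point and deletion alleles passed the test in these genes. The difference of the deletion from the point allele on the log2 scale was 0.02 for Thor (SE 0.384), 0.28 for InR (SE 0.377), 0.00 for bmm (SE 0.272) and -0.46 for ImpL2 (SE 0.723). It was 0.21 for foxo (SE 0.296), 0.02 for chico (SE 0.274) and 0.76 for sug (SE 0.386). No gene of the table passed, 0% by edgeR (34 at an unadjusted p under 0.05, 8 by DESeq2 after adjustment). The control strains W1118 and FRT19A likewise gave 0% (606 at an unadjusted p under 0.05, 251 by DESeq2), and the largest member difference was -0.50 for Thor (SE 0.385).

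Set against FRT19A alone, in 1 fit of the 4 groups, the alleles gave Thor changes of 1.599 (deletion, SE 0.394) and 1.58 (point, SE 0.393) on the log2 scale. InR changes were 1.62 (SE 0.386) and 1.34 (SE 0.383) and bmm changes 0.94 (SE 0.274) for either allele. These comparisons called 0% of genes by edgeR (1949 and 1840 at an unadjusted p under 0.05, 1127 and 1042 by DESeq2), and the alleles share the FRT19A libraries. Thor, InR and bmm were among the DESeq2 calls in the deletion allele (Benjamini-Hochberg adjusted p = 0.00489, 0.00317 and 0.0148). They were also among those in the point allele (DESeq2 Benjamini-Hochberg adjusted p = 0.00661, 0.0235 and 0.0175). With the tag as a block the edgeR Benjamini-Hochberg adjusted p of Thor was 0.0330 for the deletion and 0.0338 for the point allele. In that fit InR passed in the deletion allele (0.0484 by edgeR after Benjamini-Hochberg adjustment; 0.0685 in the point allele) and ImpL2 in the point allele (0.0487; 0.0657 in the deletion allele). The blocked fit called 4.02% of genes higher in the deletion and 3.34% in the point allele.

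Besides the 7 genes, 5 genes of the 8 pathway lists passed the test, of which melt, dob, Amy-d and Amy-p rose and Pgd fell. With the 7 genes left out, 1 of 13 tested genes from the receptor to Akt and 1 of 9 lipase and lipid droplet genes rose. Of 11 sugar response genes, 2 rose and 1 fell. The other lists gave 0 calls, of 3 insulin-like peptide, 14 TOR branch, 3 foxo target, 11 fat synthesis and 11 fatty acid breakdown genes. Over all 13244 genes tested, 4.59% were called higher and 6.34% lower. Of 17 genes from the receptor to Akt, 2 rose and 0 fell by edgeR, with a median log2 change of 0.35 against -0.01 over all genes (7 higher in the blocked fit). Besides InR the second was melt, which recruits foxo and Tsc1 to the membrane in the fly: it went from 45.7 ± 3.02 to 83.9 ± 5.59 CPM (SD, n = 4 each), with no overlap, a rise of 0.88 on the log2 scale (SE 0.112; adjusted p = 0.00659 by edgeR, Benjamini-Hochberg). The adaptor dock (0.57, edgeR Benjamini-Hochberg adjusted p = 0.0930) and the PI3 kinase subunit gene Pi3K21B (0.62, 0.189) did not pass, although dock did with the tag as a block (0.00582). Insulin-like peptide genes were scarce: only 3 of the 8 listed had enough counts to test, Ilp3, Ilp6 and Ilp8, with means of 0.584 to 4.88 CPM in the groups and 0 called (Ilp6 higher in the blocked fit, adjusted p = 0.0334 by edgeR, Benjamini-Hochberg). In the TOR branch, 1 of 15 genes rose, which was Thor, and the median was 0.07 (2 higher and 3 lower in the blocked fit). The other genes with the smallest p there, REPTOR (0.48), Lobe (0.48) and slif (-0.71), did not pass, although Lobe did with the block (adjusted p = 0.0202 by edgeR, Benjamini-Hochberg).

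Of 7 foxo targets tested, 3 rose and 0 fell by edgeR (median 0.90; 5 higher in the blocked fit), and these were Thor, InR and bmm. The targets that are not among the 7 genes described here gave 0 calls of 3 without the block. They were Lip4, a lipase gene (0.78, edgeR Benjamini-Hochberg adjusted p = 0.153), Ilp6 (0.69, 0.631) and Sesn, an inhibitor of TOR signalling (-0.05, 0.921). Ilp6 passed with the block (0.82, edgeR Benjamini-Hochberg adjusted p = 0.0334), where 12.3% of all genes were called higher. Lip4 passed by DESeq2 (0.84, Benjamini-Hochberg adjusted p = 0.0421), where 9.11% were. Both had few counts, with control means of 3.01 CPM for Ilp6 and 4.44 CPM for Lip4. Of 10 lipase and lipid droplet genes tested, 2 rose and 0 fell (median 0.49; 3 higher and 1 lower in the blocked fit). Besides bmm this was dob, the closest relative of bmm in the fly, at only 0.467 ± 0.236 CPM in controls and 1.87 ± 0.608 CPM in mutants (log2 1.99, SE 0.515, edgeR Benjamini-Hochberg adjusted p = 0.0471). The dob call held in 1 of 8 fits that left out a library (Benjamini-Hochberg adjusted p up to 0.128 by edgeR). The lipase gene Lip3 had the largest change of the list, from 2.35 ± 3.22 to 20.9 ± 6.55 CPM, without passing (log2 3.15, SE 0.969, edgeR Benjamini-Hochberg adjusted p = 0.0785; 0.0325 with the tag as a block).

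Genes of fat synthesis and of fatty acid breakdown gave 0 calls of 11 each by edgeR, with medians of 0.18 and -0.03. The blocked fit called 2 higher and 2 lower in synthesis and 1 higher in breakdown. In synthesis the smallest p were those of Gpat4, which starts glycerolipid synthesis (-0.65, edgeR Benjamini-Hochberg adjusted p = 0.0742; 0.0167 with the block), ACC, acetyl-CoA carboxylase (-0.59, 0.244; 0.00795), and FASN2, a fatty acid synthase gene (1.16, 0.246; 0.118). The genes called higher there with the block were SREBP, a transcription factor of lipid synthesis (0.34, edgeR Benjamini-Hochberg adjusted p = 0.0364), and Desat1, a desaturase gene (0.46, 0.0334), both named after their values were seen. In breakdown the smallest p were those of Hnf4, a nuclear receptor that drives fatty acid use (0.44, edgeR Benjamini-Hochberg adjusted p = 0.0810; 0.0105 with the block), yip2 (0.35, 0.251; 0.111) and Etf-QO (-0.34, 0.476; 0.0895). Of 12 sugar response genes, 2 rose and 1 fell (median 0.01; 3 higher and 2 lower in the blocked fit). Pgd, of the pentose phosphate pathway, fell by 1.67 (SE 0.267, edgeR Benjamini-Hochberg adjusted p = 0.0111), from 453 ± 163 to 142 ± 15.4 CPM, in all 8 fits that left out a library. The amylase genes Amy-d (2.08, edgeR Benjamini-Hochberg adjusted p = 0.0184) and Amy-p (1.61, 0.0492) rose in the full set, but Amy-d held its call in 4 and Amy-p in 1 of the 8 fits, and these near-identical copies can share reads.

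**Figure D3:**
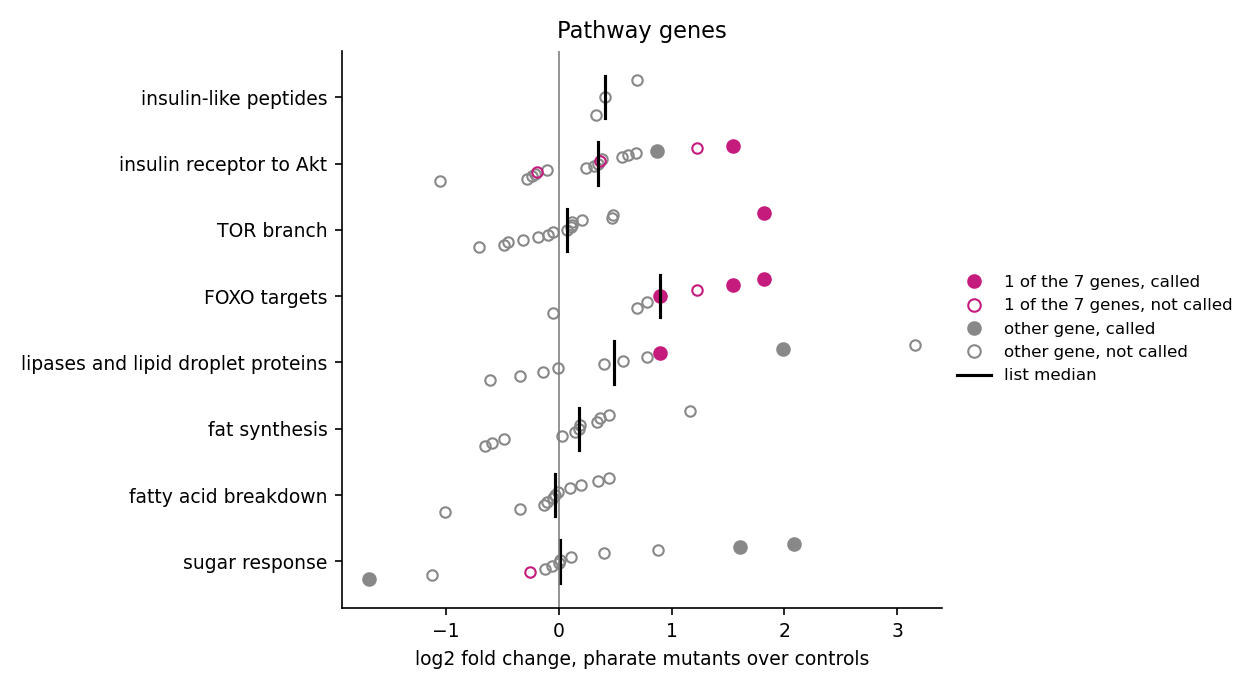
Log2 fold change of pharate mutants over controls (x axis) for every tested gene of 8 pathway lists (rows), with filled points for genes called at an adjusted p under 0.05, pink for the 7 genes described here, grey for the others, and a black bar at the list median. Thor, InR and bmm are filled, with InR and ImpL2 furthest right of the receptor to Akt list and Thor alone at the right of the TOR branch.

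In adult intestine the deletion mutant library had higher levels of the same genes, and both rescues lay between mutant and control. With 1 library per genotype there is no replicate check and no test, and intervals cover counting error only. Thor had 111.0 CPM in the control, 770.2 CPM in the mutant, 410.6 CPM with Hinfp and 335.3 CPM with His1. InR had 24.86, 359.9, 84.15 and 83.96 CPM in the same order. The mutant was highest and the control lowest for either gene, and both rescues stayed above the control. Thor was 6.94 times the control in the mutant (95% interval 6.63 to 7.26) and InR 14.5 times (13.2 to 15.9).

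ImpL2 had 42.89 CPM in the adult control, 191.5 CPM in the mutant, 69.81 CPM with Hinfp and 53.44 CPM with His1, and bmm had 94.08, 193.8, 122.9 and 118.2 CPM. Both followed the order of Thor and InR, with the mutant highest and the control lowest. ImpL2 was 4.47 times the control in the mutant (95% interval 4.14 to 4.82) and bmm 2.06 times (1.95 to 2.18). foxo differed less, at 232.0, 287.7, 289.8 and 278.7 CPM, and its 3 mutant-background libraries were alike. chico had 50.37, 56.19, 72.5 and 75.19 CPM, highest in the rescues, and sug 32.19, 32.67, 27.76 and 33.27 CPM. The level of sug with Hinfp was 0.86 times the control (95% interval 0.76 to 0.97) and 0.85 times the mutant (0.75 to 0.96).

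The 4 genes at least 2-fold higher in the adult mutant have to be read against a wide difference, since 30.4% of genes were at least 2-fold higher there. Among genes with at least 10 counts in the adult control, a limit chosen after seeing the data, the share was 14.4%. Within those genes the ratio of InR exceeded 98.2% of all ratios, that of Thor 96.6%, that of ImpL2 94.7% and that of bmm 86.3%. Without that limit, over all genes compared, the ratio of InR exceeded 83.5%, that of Thor 80.7%, that of ImpL2 78.4% and that of bmm 70.2%. The testis markers described above moved the same way, higher in the mutant and near control in the rescues, and their part in these values was not tested. Enterocyte markers summed to 7610 CPM in the adult control, 7780 CPM in the mutant, 27700 CPM with Hinfp and 24700 CPM with His1. Visceral muscle markers summed to 10400, 11300, 5740 and 7280 CPM in that order. The part of these tissue differences in the levels of the 7 genes was not tested.

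Both transgenes gave levels nearer to control for the same genes. With Hinfp, Hinfp counts stood at 1642 CPM against 4.86 CPM in the mutant, and with His1 they stayed at 6.41 CPM. With Hinfp the levels of InR (0.234 times the mutant, 95% interval 0.221 to 0.247) and ImpL2 (0.365 times, 0.342 to 0.389) were at least 2-fold lower than in the mutant, as were 28.5% of genes. With His1 those of InR (0.233 times, 0.221 to 0.247), ImpL2 (0.279 times, 0.260 to 0.300) and Thor (0.435 times, 0.422 to 0.449) were, as were 27.5% of genes. Thor with Hinfp was just short of it, at 0.533 times the mutant.

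Relative to the control, Thor stayed 3.70 times as high with Hinfp and InR 3.39 times, and these were the 2 genes of the 7 past 2-fold in either rescue. The background was 10.4% of genes at least 2-fold higher with Hinfp and 11.5% with His1. The rescues differed from each other by less than 2-fold in all 7 genes, where 8.60% of genes differed that much. Thor was 0.817 times as high with His1 as with Hinfp (95% interval 0.789 to 0.845), ImpL2 0.766 times (0.703 to 0.834) and InR 0.998 times (0.928 to 1.07). The mutant and rescue libraries of this comparison share age, while the control was younger.

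**Figure D4:**
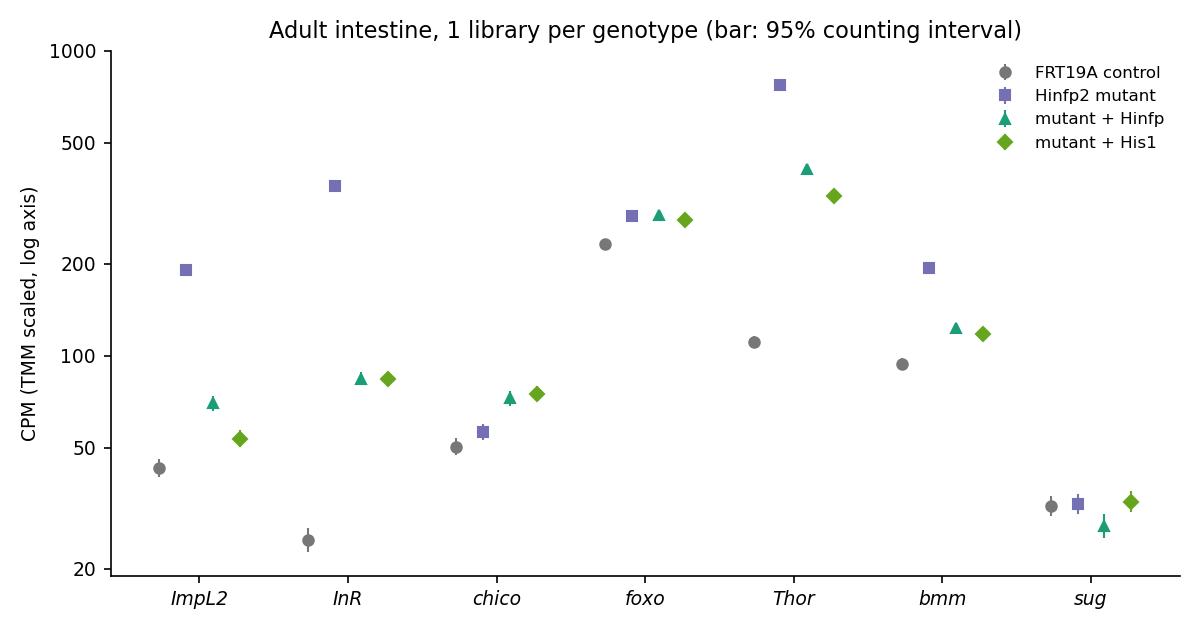
Level of each gene (CPM, TMM scaled, log axis) in adult intestine of the FRT19A control, the Hinfp2 mutant and the mutant with Hinfp or His1, 1 library each, with 95% counting intervals. Thor, InR, ImpL2 and bmm are highest in the mutant and lowest in the control with both rescues between. The levels of foxo and of sug lie close together, and chico is highest in the rescues.

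The deletion allele was compared with FRT19A at either stage, in tables that were scaled separately. The log2 ratio for InR was 1.10 in pharate SE, 2.36 in pharate PE and 3.86 in adult libraries. For Thor it was 1.43, 1.82 and 2.79, for ImpL2 0.68, 1.17 and 2.16, and for bmm 0.881, 0.996 and 1.04 in the same order. The adult ratio was the highest of the 3 for all 4 genes. It was also the highest for chico (-0.427, 0.0101 and 0.158) and for sug (-0.0465, -0.25 and 0.0213). Only foxo (0.691, 0.21 and 0.311) was highest in pharate SE libraries. The difference between stages was not tested.

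Levels of different genes were compared per length, in the authors' deposited TPM (which divides by gene length). Thor was the most abundant of the 7 in each pharate library, at 286.0 to 1028 TPM in controls and 1567 to 3186 TPM in mutants. InR was the lowest of the 7 in all 4 controls (6.73 to 20.8 TPM) and chico in all 4 mutants (22.03 to 27.36 TPM), where InR stood at 27.6 to 51.2 TPM. The order of ImpL2, foxo, bmm and sug between these ends changed from library to library, with ImpL2 in second place in every SE library.

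Genes with patterns most like each member were sought over the 8 pharate libraries, after the mean of the SE and of the PE libraries was taken from each value, among 8968 genes. The measure was Pearson's r of log2 CPM, given as a description with no p, because the libraries share genotype class and tag and a close match is easily found among so many genes. The first matches were CG3448, CG5399 and Chmp1, an ESCRT-III gene, for Thor, and CG18528, ssh, a cofilin phosphatase gene, and Dlc90F, a dynein light chain gene, for InR. For bmm they were Sur-8, CG6277 and CG10725, and for ImpL2 CG16890, IKKepsilon and CR10102. The first match of each of these 4 reached r from 0.993 to 0.998. Those of foxo (CG13796), chico (Cyp6a22) and sug (CG32767) reached 0.968, 0.977 and 0.939.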

How the data were processed

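RNA-seq of 12 gut libraries was used. The gene values are raw counts of reads as the authors deposited them, 1 table for the 8 pharate and another for the 4 adult libraries. Per the submitters' processing notes the pharate libraries went through STAR (2.5.3a) and featureCounts (1.5.2). For adults the notes list, with no roles, DESeq2, edgeR (3.28.1), featureCounts (1.6.2), Trimmomatic (0.39), STAR (2.5.3a) and Bowtie2 (2.3.5). The pharate TPM values were deposited by the authors and used as they stand. Strandedness and the handling of multi-mapped reads are not known here. The labels describe both removal of ribosomal RNA and poly-A selection, and do not spell out the tags SE and PE, taken as replicates 1 and 2. Another 112 per-sample columns were left unused, and 156 transposon rows of the adult table were left out. IDs matched a symbol for 16403 pharate and 15581 adult rows. Coordinates and exon overlaps came from an Ensembl annotation of BDGP6.

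Gene counts went into edgeR 4.0.16 (R 4.3.3; quasi-likelihood, two-sided). Its filterByExpr, set to 10 counts, kept 13244 genes, libraries were scaled by TMM, and p-values were adjusted over the kept genes by Benjamini-Hochberg. The SE of a log2 change is its size over the root of F. The 4 mutant libraries were set against the 4 controls; a fit of the 4 groups gave each allele against FRT19A, W1118 against FRT19A and the alleles against each other; an interaction tested the tag. Same-numbered libraries, which share a tag, deviated together from their group means (Pearson's r 0.675 to 0.843 across genes; with 2 libraries per group the 12 pairs hold 6 distinct values), so the numbers pair the samples and the blocked value is printed where it changed a call. Other alternatives were DESeq2 1.42.0, RLE scaling, no filter, 1 tag or control strain alone, and each library left out. Adult levels have exact binomial 95% intervals, which cover counting error only. Code was tested on simulated data.

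The 7 genes and the 17 lists were chosen with earlier results of these data known. Pathway genes named are those called and the 3 per list with the smallest p. Of marker lists, those called or most abundant are named, and further fat body markers were named after their values were seen. Pepck1 was not analysed here.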

Additional observations from a re-analysis of the deposited data

Results flagged for a closer look

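sug had 125.2 CPM in the SE library of FRT19A, far from the other 3 pharate controls at 73.56 to 76.0 CPM. It had 121.2 CPM in the SE library of the deletion mutant, far from the other 3 mutant libraries at 52.61 to 63.68 CPM. Both were set apart by the gap to the nearest library of the same class, which chance meets now and then at this 95% limit, and 14 groups were tried. The deletion allele's log2 ratio to FRT19A for sug was -0.05 and -0.25 in the pharate SE and PE libraries and 0.0213 in the adult library, an opposite sign whose difference was not tested, and the adult interval of -0.14 to 0.18 includes 0.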

How the results depend on the processing

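Thor, InR and bmm kept their direction in every alternative run on mutants against controls. Their calls were lost by edgeR in SE libraries alone (log2 1.61, 1.14 and 1.03), for InR also with FRT19A as the only control (1.5, Benjamini-Hochberg adjusted p = 0.0599), for bmm also with W1118 as the only control (0.85, 0.128) and in 3 of 8 fits without 1 library (0.78 to 1.04 over all 8). ImpL2 gained a call with the replicate block (1.23), DESeq2 (1.28) and PE libraries alone (1.26). The replicate block changed no other call of a member in that comparison. The cause of these changes was not tested.

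The number of genes called, 1448 for mutants against controls, was 2769 by DESeq2, 4177 with the replicate block, 0 in SE libraries alone, 4942 in PE libraries alone, 771 with FRT19A and 238 with W1118 as the only control, and 494 to 1787 without 1 library (494 without the point mutant's SE library, 1787 without the SE library of W1118). RLE scaling gave 677 higher and 779 lower against 608 and 840. Against FRT19A the deletion allele went from 0 calls to 13 with RLE scaling, 1127 by DESeq2 and 1493 with the block, and the point allele from 0 to 17, 1042 and 1106, and to 7 without the filter. W1118 against FRT19A gave 251 by DESeq2 and 1 with the block, and the alleles against each other 8 by DESeq2. The tag comparison, 804 calls, ranged from 0 to 1081 without 1 library, a setting added after seeing the data. In adults the genes at least 2-fold apart between mutant and control were 3264 of those with 10 counts in the control and 5624 otherwise. Thor with Hinfp passed 2-fold below the mutant only with library size alone (log2 -1.07).

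None of the results whose sign turned had passed the test. W1118 against FRT19A gave 0.04 for chico with RLE scaling (0.0420) and DESeq2 (0.0418). The alleles gave 0.0152 for bmm with RLE scaling, 0.0152 by DESeq2 and 0.0104 without the filter. The tag difference of ImpL2 was -0.0318 with RLE scaling and -0.0124 without the filter. Ilp8 was -0.13 in SE libraries alone, Ilp3 -0.0925 in PE libraries alone and Sesn 0.16 with FRT19A as the only control and -0.26 to 0.16 without 1 library. Without 1 library, the deletion allele against FRT19A ranged from -0.45 to 0.0309 for chico and -0.66 to 0.29 for sug. W1118 against FRT19A ranged from -0.33 to 0.43 for bmm, -0.56 to 0.54 for InR, -0.98 to 0.43 for ImpL2, -0.46 to 0.25 for foxo and -0.21 to 0.19 for chico. The alleles against each other ranged from -0.13 to 0.20 for Thor, -0.0145 to 0.0181 for bmm, -1.05 to 0.56 for ImpL2 and -0.24 to 0.24 for chico. The tag difference ranged from -0.30 to 0.38 for ImpL2 and -0.75 to 0.43 for sug.

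With 2 libraries per pharate group, no difference between alleles passed the test by edgeR, up to 0.76 for sug (SE 0.386) among the 7 genes, and with 1 library per adult genotype the spread between animals is not known. Insulin-like peptide genes and dob had few counts.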

Other observations

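Uro, the urate oxidase gene of Malpighian tubules, went from 49.2 ± 43.4 to 1010 ± 381 CPM in the pharate mutants (SD, n = 4 each; log2 4.36, SE 0.804, edgeR Benjamini-Hochberg adjusted p = 0.0165). Its call was lost without the point mutant's SE library (edgeR Benjamini-Hochberg adjusted p = 0.0503). In adults Uro had 73.45 CPM in the control, 1569 CPM in the mutant, 432.9 CPM with Hinfp and 702.0 CPM with His1, lowest in the control and highest in the mutant. Of the other Malpighian tubule markers called, Oatp58Db, a transporter gene, rose by 1.69 on the log2 scale (SE 0.323; adjusted p = 0.0187 by edgeR, Benjamini-Hochberg; called in 3 of 8 fits without a library) and Irk3, a potassium channel gene, fell by 1.63 (SE 0.379, 0.0336; called in 1 of 8). Irk3 had 816.1 CPM in the adult control, 230.1 CPM in the mutant, 271.5 CPM with Hinfp and 354.6 CPM with His1, so Uro and Irk3 went opposite ways, and the median of the 9 markers was -0.03. Tk, a hormone gene of enteroendocrine cells, fell by 1.04 on the log2 scale in the pharate mutants (SE 0.139, edgeR Benjamini-Hochberg adjusted p = 0.00722), in all 8 fits that left out a library. In adults Tk had 113.2 CPM in the control, 61.61 CPM in the mutant, 137.7 CPM with Hinfp and 144.7 CPM with His1, lowest in the mutant. Sesn had a mean of 210 CPM in pharate controls and 1.02 CPM in the adult control, and levels were not compared between the tables.

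Of the marker lists, the numbers called higher and lower in pharate mutants by edgeR were 0 and 0 of 6 haemocyte (1 and 1 with the replicate block), 0 and 0 of 8 visceral muscle (0 and 1), 2 and 0 of 8 enterocyte (3 and 0) and 1 and 0 of 6 progenitor markers (1 and 0). They were 0 and 1 of 8 enteroendocrine (1 and 4 with the replicate block), 2 and 1 of 9 Malpighian tubule (2 and 1) and 1 and 0 of 15 testis markers (2 and 0). Of ecdysone response genes 0 and 0 of 16 were called (2 and 0 with the block). The markers called besides those above were the enterocyte genes Amy-p and Myo31DF (log2 0.62, edgeR Benjamini-Hochberg adjusted p = 0.0434), the progenitor gene E(spl)malpha-BFM (1.99, 0.0108) and the testis gene bam (2.54, 0.0367). Among the fits that left out a library, E(spl)malpha-BFM was called in 8 of 8, bam in 1 of 8 and Myo31DF in 0 of 8.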
